A study of Mus musculus and Homo sapiens with 43 samples.

Results

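The comparison described here sets neural progenitor cells (NPCs) made from a Phc1-SAM knock-out (Phc1-SAM KO) mouse embryonic stem cell (ESC) line against NPCs made from the wild-type (WT) parent. It rests on 4 RNA-seq libraries, 2 Phc1-SAM KO NPC and 2 WT NPC, of 43 samples in the series, 24 of which are RNA-seq libraries. The libraries were chosen by their labels alone. The tests also used the ESC libraries of both genotypes and the ESC and NPC libraries of a Phc1 knock-out (Phc1 KO), with 2 libraries in each group. Some values are set beside those of NPCs of a Pcgf2 knock-out (Pcgf2 KO) and of WT embryoid bodies at day 8, again with 2 libraries each.

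All cells derive from E14, an established mouse ESC line, and the knock-out lines were made in it with CRISPR/Cas9. The labels name the genotype Phc1-SAM-knock-out without giving the edit, and they do not say whether a line is 1 clone. ESCs of every genotype grew in serum medium with leukaemia inhibitory factor, 1 µM of the MEK inhibitor PD0325901 and 3 µM of the GSK3 inhibitor Chir99021, the combination that holds ESCs in the naive state. NPCs of every genotype were made from embryoid bodies, floating aggregates of differentiating cells, in the same base medium without those factors and with 5 µM retinoic acid. The labels do not say whether the 2 libraries of a group came from separate cultures or lines, so p-values here measure only the spread between these libraries, which may be technical.

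Phc1 is a Polyhomeotic subunit of canonical Polycomb repressive complex 1 (PRC1), which binds chromatin at silenced developmental genes, compacts it and holds distant silent genes in contact. The sterile alpha motif (SAM) of Polyhomeotic proteins joins head to tail into chains, and this polymerisation links PRC1 complexes to each other. In ESCs, Polycomb keeps lineage regulators such as the Hox genes silent, and on differentiation the silent set has to be redrawn: lineage genes open and pluripotency genes close. Retinoic acid drives ESC aggregates towards posterior neural fates and switches on Hox genes from the 3′ end of each cluster.

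The values are TPM, reads divided by transcript length and by the total over all transcripts, from 2 tables made separately. WT came from the first table and both Phc1 genotypes from the second, so the table and the genotype cannot be told apart in a direct contrast, and no p-value is given for it. Each library was rescaled to the same total over the 31268 genes in both tables, and a gene was called higher or lower when the mean of log2(TPM + 1) differed by at least 2, a 4-fold change on that scale, with no overlap between the libraries of each group. A gene was tested when it reached 1 TPM in at least 2 of the 4 libraries. Because the fold change is on the log2(TPM + 1) scale, it understates changes of low genes. The number of reads behind a TPM value is not given, so counting error is unknown. The libraries had similar numbers of genes at 1 TPM or more: 14223 and 14195 in Phc1-SAM KO NPCs and 14233 and 14105 in WT NPCs. Between the 2 libraries of a group the log2 values differed with an SD of 0.335 in Phc1-SAM KO NPCs and 0.322 in WT NPCs.

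The libraries also differed in a way that genotype and stage do not describe. The summed level of 4 Y-linked genes (Eif2s3y, Ddx3y, Uty and Kdm5d) was 60.3 and 60.8 TPM in Phc1-SAM KO NPCs, against 5.32 and 5.01 TPM in WT NPCs. It was 6.01 and 9.26 TPM in Phc1-SAM KO ESCs, 2.68 and 2.44 TPM in WT ESCs, and 73.3 and 90.3 TPM in WT embryoid bodies at day 8. Phc1-SAM KO ESCs and NPCs are thus on opposite sides of this split, and so are WT NPCs and Phc1-SAM KO NPCs. Loss of the Y chromosome in some cultures and an exchange of lines or libraries cannot be told apart here, and either would touch the contrast between NPCs and the change between stages within Phc1-SAM KO. Both WT NPC libraries are on the low side, so none is left once they are set aside, and the part of this difference in the results below was not tested. Eif2s3y and Ddx3y are themselves among the genes called higher.

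Among 14991 tested genes, 487 were at least 4-fold higher in Phc1-SAM KO NPCs than in WT NPCs (3.25%) and 473 at least 4-fold lower (3.16%). Under the naming rule given below, which filters the called genes, the 12 highest differences included the pluripotency genes Dppa5a, Pou5f1 and Zfp42. The 12 lowest were mostly genes of embryonic globins and of neural progenitors and neurons. The median difference of all tested genes was -0.18 on the log2 scale. In bulk RNA, fewer cells of a type and less RNA per cell cannot be told apart. In the plot of all tested genes most points lie along the diagonal, while the called genes spread to the upper left and lower right corners.

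**Figure D1:**
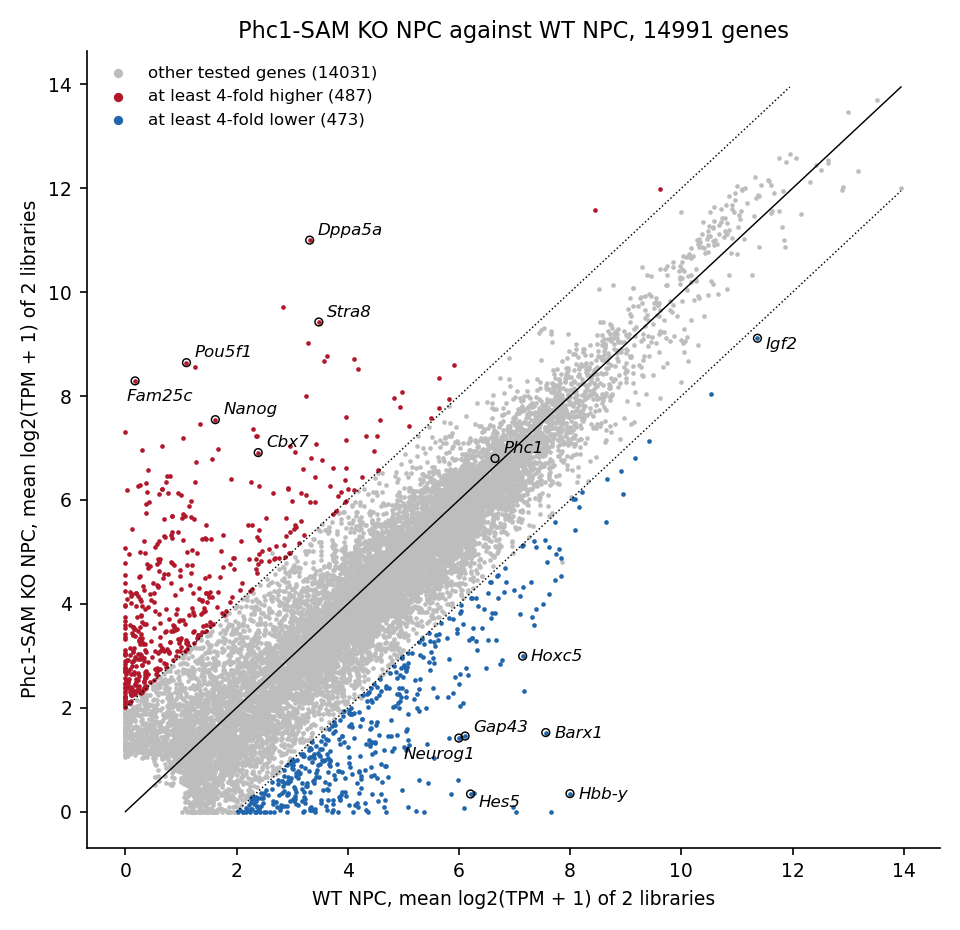
Mean log2(TPM + 1) of 2 libraries in Phc1-SAM KO NPCs (vertical axis) against WT NPCs (horizontal axis) for 14991 genes, with 487 genes at least 4-fold higher in red, 473 at least 4-fold lower in blue and the rest in grey. The solid line marks equal levels and the dotted lines a 4-fold difference. Phc1 lies close to the line of equal levels.

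A contrast that reduces the gene-wise factors of a table is the difference between stage changes: the change from ESC to NPC within Phc1-SAM KO minus the change from ESC to NPC within WT, tested with limma on log2(TPM + 1) over 8 libraries. A table factor cancels only for genes well above the pseudocount: on log2(TPM + 1) it does not for a gene near 0 in 1 table. The contrast also removes a genotype difference that is equal in ESCs and NPCs. With Benjamini-Hochberg adjustment at 0.05, the stage change was more positive in Phc1-SAM KO for 2775 of 15720 genes (17.7%) and more negative for 6735 (42.8%). The median of all genes was -0.34, and the split moved with the scaling: median-of-ratios scaling, which brought that median to 0.01, gave 4458 higher and 4118 lower, and quantile normalization gave 4266 higher and 4332 lower. Both criteria, the 4-fold difference between NPCs and a stage change called in the same direction, were met by 450 higher genes (3.00% of 14991) and 459 lower genes (3.06%). The criteria share the 4 NPC libraries, and the stage contrast is the NPC difference minus the ESC difference. A gene called by size with like ESC levels thus passes both nearly by construction, so the second criterion is not independent. The stage change ran opposite to the 4-fold call for 4 higher genes and 1 lower gene.

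Most of the called genes were near equal before differentiation. In ESCs, Phc1-SAM KO and WT differed by less than 2-fold for 340 of the 487 higher genes and 417 of the 473 lower genes, and only 31 and 8 were already 4-fold higher or lower there. Of the higher genes, 269 had at least 5 TPM in WT ESCs, and 209 of those were 4-fold or more lower in WT NPCs than in WT ESCs. Of the lower genes, 52 were 4-fold or more above the ESC level in Phc1-SAM KO NPCs, against 409 in WT NPCs. All these genes were chosen by their difference between NPCs. Where ESC levels were near equal, unlike changes in the genotypes followed from that choice, so these counts only describe the genes. The shares over all tested genes were not counted. A further 103 higher genes were under 1 TPM in both WT ESCs and WT NPCs.

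**Figure D2:**
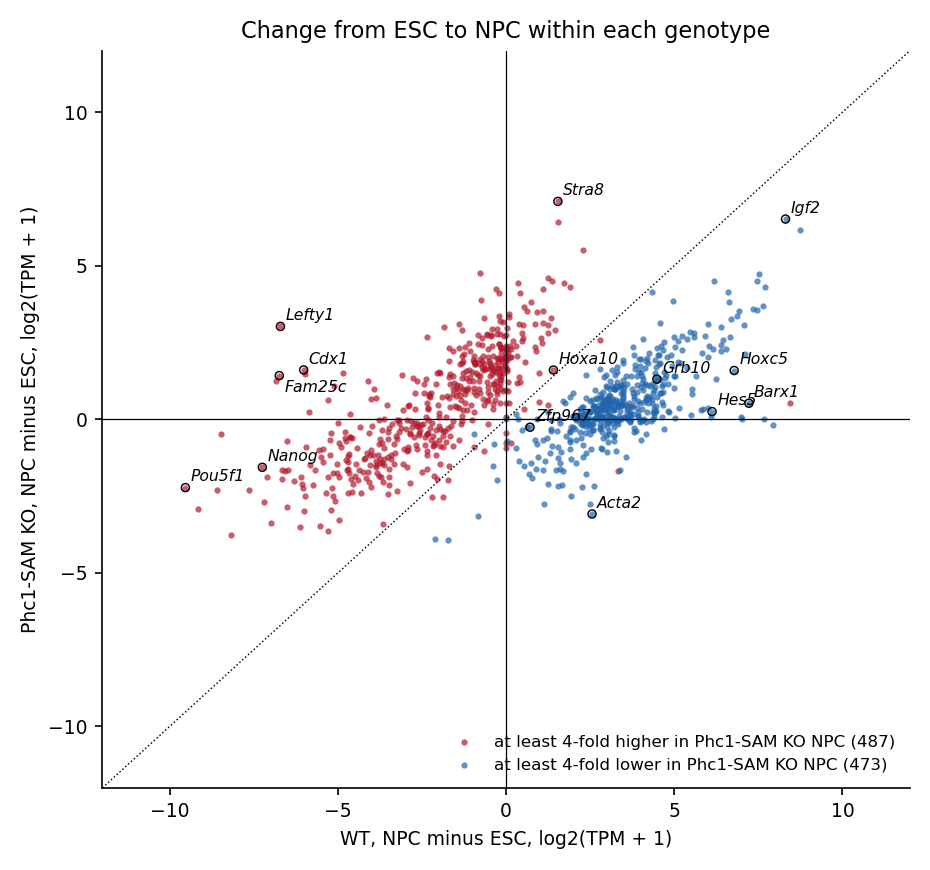
Change from ESC to NPC in log2(TPM + 1) within Phc1-SAM KO (vertical axis) against the same change within WT (horizontal axis), for the 487 genes called higher in Phc1-SAM KO NPCs (red) and the 473 called lower (blue). On the dotted line both genotypes changed by the same amount. Pou5f1 and Nanog lie much further below 0 within WT than within Phc1-SAM KO, and Hes5 and Barx1 lie far above 0 within WT and near 0 within Phc1-SAM KO.

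The targeted gene was near its WT level in total RNA. Phc1 (chromosome 6, 122317731 to 122340227, GRCm38.p6) had 106 and 115 TPM in Phc1-SAM KO NPCs, against 102 and 96.6 TPM in WT NPCs. The libraries were separated by a small margin, a difference of 0.15 on the log2 scale. A gene-level TPM sums all transcripts of the gene, so it cannot show the loss of a domain, and the labels were not checked by it. In Phc1 KO NPCs Phc1 stood at 113 and 110 TPM.

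The other Polyhomeotic genes were close to WT. Phc2, the paralogue that is more abundant in differentiated cells, had 100.6 and 96.7 TPM in Phc1-SAM KO NPCs and 143 and 142 TPM in WT NPCs. Phc3 had 6.42 and 7.46 TPM in Phc1-SAM KO NPCs and 10.8 and 9.90 TPM in WT NPCs. Both were lower without overlap and neither passed the 4-fold rule. Pcgf2, the RING-finger partner that defines this PRC1 class with Bmi1, had 121 and 120 TPM in Phc1-SAM KO NPCs and 126 and 120 TPM in WT NPCs. Bmi1 had 48.1 and 51.0 TPM in Phc1-SAM KO NPCs and 50.6 and 44.5 TPM in WT NPCs, with overlap.

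Among 25 PRC1 genes, 1 was called higher and none lower, with a median of -0.29. That gene was Cbx7, the chromodomain subunit that canonical PRC1 uses in ESCs to read H3K27 trimethylation and that gives way to other Cbx proteins on differentiation. Cbx7 had 124 and 115 TPM in Phc1-SAM KO NPCs, against 4.47 and 4.01 TPM in WT NPCs. Its ESC levels were 186 and 178 TPM in Phc1-SAM KO and 160 and 130 TPM in WT. The Phc1-SAM KO libraries thus kept a Cbx7 level near that of ESCs, and the stage change differed by 4.19 ± 0.15 (SE; limma, Benjamini-Hochberg adjusted p = 2.8e-06). The chromodomain genes Cbx2, Cbx6 and Cbx8 did not pass: Cbx2 differed by -0.44, Cbx6 by -0.29 and Cbx8 by 0.89 on the log2 scale. The ubiquitin ligase subunits Ring1 and Rnf2 differed by -1.36 and -0.38.

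Of 12 genes of PRC2, the complex that writes H3K27 methylation, Epop alone was called, and it was higher. Epop, an accessory subunit best known from ESCs, had 151 and 146 TPM in Phc1-SAM KO NPCs, against 16.5 and 22.2 TPM in WT NPCs, a difference of 2.89. The catalytic subunit Ezh2 had 163 and 171 TPM in Phc1-SAM KO NPCs and 342 and 333 TPM in WT NPCs, which is lower without overlap but under 4-fold.

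Pluripotency genes were the group with the most calls for its size. Of 20 genes, 18 were called higher and none lower, with a median of 4.10 against -0.18 for all genes. The stage change was more positive in Phc1-SAM KO for all 20 (limma, Benjamini-Hochberg adjusted over all genes), beside 17.7% of all genes. Their summed level was 3544 and 3462 TPM in Phc1-SAM KO NPCs, against 56.4 and 61.2 TPM in WT NPCs. In ESCs the sums were 8491 and 8400 TPM in Phc1-SAM KO and 7852 and 8289 TPM in WT.

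Pou5f1, the Oct4 gene at the centre of the pluripotency network, had 404 and 394 TPM in Phc1-SAM KO NPCs, against 0.823 and 1.51 TPM in WT NPCs. This was 21.3% of its own ESC level in Phc1-SAM KO and 0.0736% in WT. The stage change differed by 7.31 ± 0.19 (SE; limma, Benjamini-Hochberg adjusted p = 6e-07). Nanog, the homeobox factor of the naive epiblast, had 184 and 188 TPM in Phc1-SAM KO NPCs and 1.98 and 2.15 TPM in WT NPCs. Its stage change differed by 5.68 ± 0.07 (SE; limma, Benjamini-Hochberg adjusted p = 9.1e-08). In neither gene did a Phc1-SAM KO library come near a WT library.

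The naive-state factors followed the same order of levels. Zfp42 (Rex1), a naive ESC marker, had 148 and 145 TPM in Phc1-SAM KO NPCs and 0.835 and 1.27 TPM in WT NPCs. Esrrb, an orphan nuclear receptor of the naive network, had 106 and 104 TPM in Phc1-SAM KO NPCs and 0.988 and 1.94 TPM in WT NPCs. Klf2, a Krüppel-like factor of the naive state, had 108 and 113 TPM in Phc1-SAM KO NPCs and 1.76 and 2.15 TPM in WT NPCs. In all 3 genes each Phc1-SAM KO library was far above both WT libraries. Only Klf4 and Klf5 of the list missed the 4-fold rule, each differing by 1.27. Klf4 averaged 18.5 TPM in Phc1-SAM KO NPCs and 7.12 TPM in WT NPCs.

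The highest genes under the naming rule were members of this list and genes outside it. Dppa5a, a developmental pluripotency gene of the list, had 2079 and 2023 TPM in Phc1-SAM KO NPCs, against 5.19 and 15.0 TPM in WT NPCs, with a difference of 7.69. Fam25c, outside the list, had 309 and 316 TPM in Phc1-SAM KO NPCs and was listed at 0 and 0.272 TPM in WT NPCs. Dppa2, which helps to keep developmental promoters poised, had 134 and 126 TPM in Phc1-SAM KO NPCs and 0.553 and 0.602 TPM in WT NPCs. Further genes among the 12 with the highest differences were Calcoco2, an autophagy receptor, Mt2, a metallothionein, Crxos, a homeobox gene, and Aqp3, a water and glycerol channel. Mt2 had 825 and 846 TPM in Phc1-SAM KO NPCs and 3.94 and 9.24 TPM in WT NPCs.

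Some of these genes stood on opposite sides of their ESC level in the 2 genotypes. Lefty1, a secreted inhibitor of Nodal signalling, had 124 and 123 TPM in Phc1-SAM KO NPCs, against 0.313 and 0.160 TPM in WT NPCs. In ESCs the order was the other way, with 12.0 and 17.1 TPM in Phc1-SAM KO and 123 and 134 TPM in WT. Its stage change therefore differed by 9.73 ± 0.21 (SE; limma, Benjamini-Hochberg adjusted p = 3.5e-07). Lefty2, its neighbour on chromosome 1 with the same role, had 79.0 and 76.2 TPM in Phc1-SAM KO NPCs and 0.142 and 0.258 TPM in WT NPCs. Cdx1, a caudal homeobox gene that responds to retinoic acid and Wnt, had 77.6 and 75.4 TPM in Phc1-SAM KO NPCs and 0.166 and 0.169 TPM in WT NPCs. Both were higher in NPCs than in ESCs within Phc1-SAM KO and lower within WT.

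**Figure D3:**
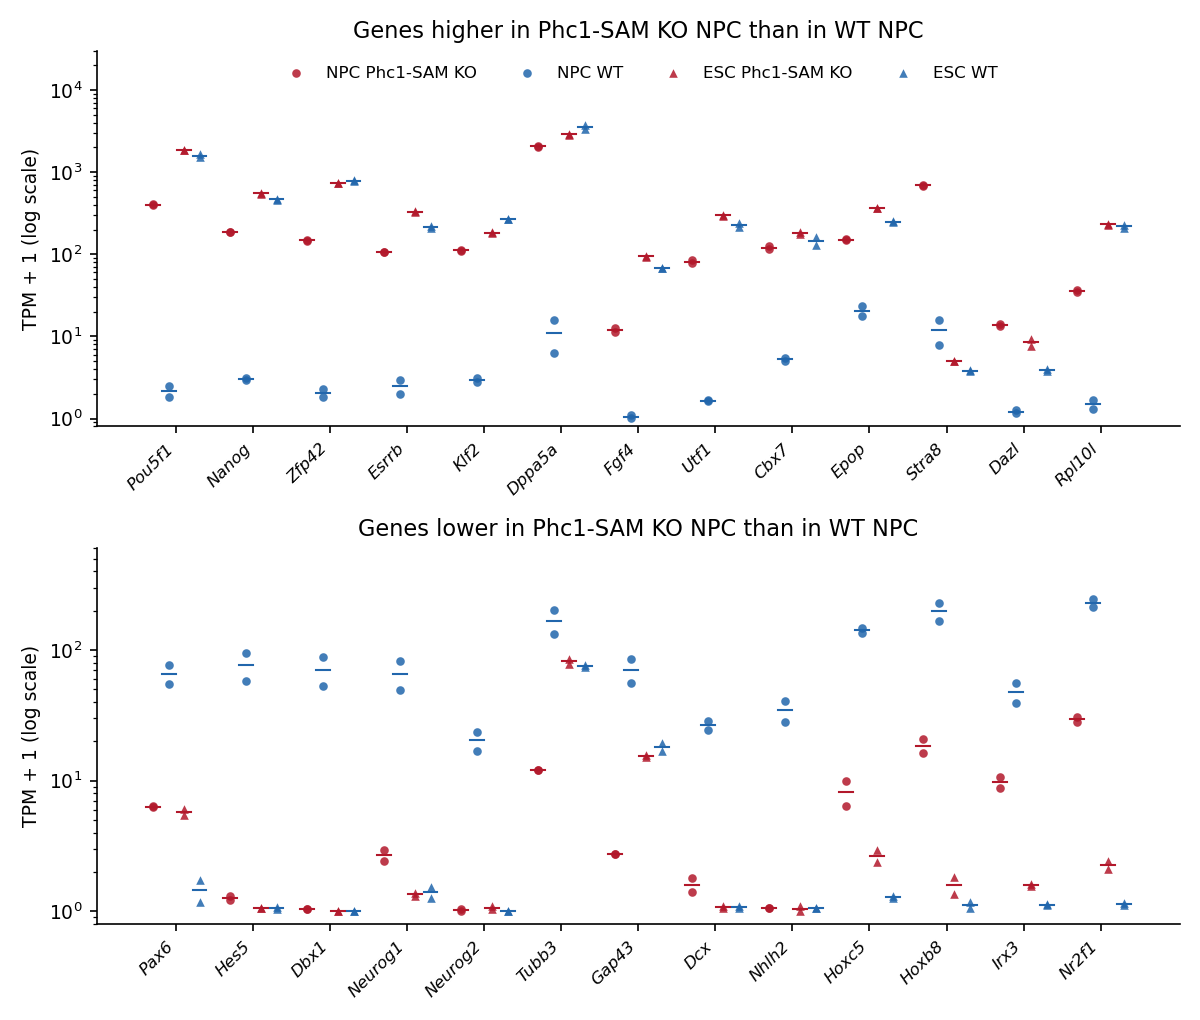
TPM + 1 on a log scale for genes higher (top) and lower (bottom) in Phc1-SAM KO NPCs than in WT NPCs. Each point is 1 library, red for Phc1-SAM KO and blue for WT, circles for NPC and triangles for ESC, and the short lines are means of 2 libraries. In the top panel the red circles sit between the ESC triangles and the blue circles for the pluripotency genes, with Pou5f1 at 404 and 394 TPM, and in the bottom panel they sit far below the blue circles.

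The promoter sequences of 4 genes with large differences are shown because they differ in CpG content, a property linked to Polycomb binding. They were picked after their values were seen, and other genes ran the other way: Cbx7, which was higher, held 33 CpGs, and Neurog2 and Dbx1, which were lower, held 10 and 15. The RefSeq promoter table (GRCm38.p6, 250 bases before to 50 after each start) matched 62 of the 91 named genes. Nanog and Pou5f1 are pluripotency genes that were higher in Phc1-SAM KO NPCs, and Barx1 and Neurog1 are developmental regulators that were lower. They lie at chr6:122707239-122707538 on the plus strand (Nanog), chr17:35505782-35506081 on the plus strand (Pou5f1), chr13:48662786-48663085 on the plus strand (Barx1) and chr13:56252131-56252430 on the minus strand (Neurog1). Capitals mark CpG dinucleotides:
Nanog: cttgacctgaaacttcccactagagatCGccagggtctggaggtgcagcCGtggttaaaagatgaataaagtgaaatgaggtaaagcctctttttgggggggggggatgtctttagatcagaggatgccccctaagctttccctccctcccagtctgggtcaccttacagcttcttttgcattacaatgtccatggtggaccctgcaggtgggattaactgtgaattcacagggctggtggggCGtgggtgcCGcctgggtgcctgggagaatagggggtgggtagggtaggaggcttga
Pou5f1: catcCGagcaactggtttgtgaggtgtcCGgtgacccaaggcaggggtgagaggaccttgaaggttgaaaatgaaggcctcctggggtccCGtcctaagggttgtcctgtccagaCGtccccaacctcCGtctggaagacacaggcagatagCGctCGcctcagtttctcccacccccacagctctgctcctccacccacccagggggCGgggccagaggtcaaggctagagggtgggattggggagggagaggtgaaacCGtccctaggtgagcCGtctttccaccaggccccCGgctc
Barx1: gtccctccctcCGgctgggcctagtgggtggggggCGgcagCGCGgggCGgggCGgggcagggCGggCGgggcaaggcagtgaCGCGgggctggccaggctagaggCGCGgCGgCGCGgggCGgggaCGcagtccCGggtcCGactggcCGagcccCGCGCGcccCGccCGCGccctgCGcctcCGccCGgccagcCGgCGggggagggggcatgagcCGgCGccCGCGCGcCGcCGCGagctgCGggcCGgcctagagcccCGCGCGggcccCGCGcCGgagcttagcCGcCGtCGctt
Neurog1: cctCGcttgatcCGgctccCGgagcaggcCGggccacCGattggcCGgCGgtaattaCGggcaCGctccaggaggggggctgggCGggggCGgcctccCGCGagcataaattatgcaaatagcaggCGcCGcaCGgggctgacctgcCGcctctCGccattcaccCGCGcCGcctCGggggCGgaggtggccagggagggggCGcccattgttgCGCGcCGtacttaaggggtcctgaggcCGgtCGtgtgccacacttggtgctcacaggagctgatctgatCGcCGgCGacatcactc

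The Nanog promoter held 4 CpGs and the Pou5f1 promoter 11, against 50 in Barx1 and 32 in Neurog1. Over the whole comparison the median number of CpGs in these 300 bases was 9 for 304 genes called higher, 15 for 321 called lower and 20 for 10833 tested genes. The octamer ATGCAAAT, searched on both strands, was in 3.95% of promoters of genes called higher, 4.05% of those called lower and 1.61% of all. Of the sequences above, Neurog1 held 1 copy, on the strand shown, and the other genes none.

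Neural genes were lower as a group. Of 27 tested neural progenitor genes, 14 were called lower and none higher, with a median of -2.43. The stage change was more negative in Phc1-SAM KO for 24 and more positive for 2 (limma, adjusted over all genes), beside 42.8% and 17.7% of all genes. The summed level was 560 and 525 TPM in Phc1-SAM KO NPCs, against 1427 and 1843 TPM in WT NPCs. In ESCs it was 769 and 736 TPM in Phc1-SAM KO and 468 and 479 TPM in WT. The lower sum in Phc1-SAM KO NPCs than in Phc1-SAM KO ESCs came with Sox2 and Vim, genes that ESCs also express: Sox2 had 219 and 215 TPM in Phc1-SAM KO ESCs, and Vim, the intermediate filament vimentin, had 352 and 329 TPM in Phc1-SAM KO NPCs and 454 and 426 TPM in Phc1-SAM KO ESCs. Of the 27 genes, 17 were above their ESC level without overlap in Phc1-SAM KO NPCs and 8 below it, against 25 above and 2 below in WT NPCs. The shares of all genes above or below their ESC level in this way were not counted. The median change from ESC to NPC was 0.27 within Phc1-SAM KO and 3.12 within WT.

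Hes5, a Notch target of neural progenitors, had 0.229 and 0.302 TPM in Phc1-SAM KO NPCs, against 56.3 and 94.3 TPM in WT NPCs. Its stage change differed by -5.87 ± 0.32 (SE; limma, Benjamini-Hochberg adjusted p = 1.7e-05). Pax6, the paired-box factor of the early neural tube, had 5.24 and 5.38 TPM in Phc1-SAM KO NPCs and 53.8 and 75.6 TPM in WT NPCs. In ESCs Pax6 stood at 5.01 and 4.46 TPM in Phc1-SAM KO and at 0.720 and 0.181 TPM in WT, so the Phc1-SAM KO level hardly moved between stages. Nes, the progenitor intermediate filament nestin, had 13 and 12.9 TPM in Phc1-SAM KO NPCs and 138 and 132 TPM in WT NPCs.

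Of the proneural transcription factors Neurog2 and Neurog1, which commit progenitors to neurons, Neurog2 was near 0 and Neurog1 low in Phc1-SAM KO NPCs. Neurog2 had 0 and 0.0403 TPM there, against 15.98 and 22.6 TPM in WT NPCs. Neurog1 had 1.44 and 1.92 TPM in Phc1-SAM KO NPCs and 48.7 and 81.1 TPM in WT NPCs. For both genes the genotypes were far apart, with no WT library near a Phc1-SAM KO library. Dbx1, which marks interneuron progenitors of the ventral neural tube, had 0.0437 and 0.0432 TPM in Phc1-SAM KO NPCs and 51.6 and 87.5 TPM in WT NPCs. Not all progenitor genes followed: Sox2, shared by ESCs and neural progenitors, had 59.1 and 57.4 TPM in Phc1-SAM KO NPCs and 33.6 and 46.1 TPM in WT NPCs. Zic1 and Zic2, zinc-finger factors of the dorsal neural tube, differed by 0.13 and 0.87.

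Of 30 tested neuron genes, 21 were called lower and none higher, with a median of -3.09. A more negative stage change was called for 28, beside 42.8% of all genes. Their sum was 98.1 and 91.6 TPM in Phc1-SAM KO NPCs, against 768 and 1004 TPM in WT NPCs. Gap43, a growth cone protein, had 1.75 and 1.73 TPM in Phc1-SAM KO NPCs and 55.2 and 84.0 TPM in WT NPCs. Tubb3, the neuronal tubulin, had 11.0 and 10.9 TPM in Phc1-SAM KO NPCs and 130 and 200 TPM in WT NPCs. Both were lower in Phc1-SAM KO NPCs than in Phc1-SAM KO ESCs, where Gap43 had 14.7 and 14.2 TPM and Tubb3 had 76.7 and 84.7 TPM. The neuronal helix-loop-helix factor Nhlh2 had 0.0677 and 0.0670 TPM in Phc1-SAM KO NPCs and 27.2 and 40.0 TPM in WT NPCs. The motor neuron factors Isl1, Isl2, Mnx1 and Lhx3 did not pass the 4-fold rule; Isl1 had 25.1 and 27.1 TPM in Phc1-SAM KO NPCs and 65.8 and 47.0 TPM in WT NPCs.

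Of 8 tested forebrain genes, Emx2 alone was called, and lower, with 0.689 and 0.483 TPM in Phc1-SAM KO NPCs and 8.86 and 11.51 TPM in WT NPCs. Of 11 neural crest and glia genes, 1 was higher and 1 lower. Erbb3, a neuregulin receptor of Schwann cell precursors, had 30.9 and 29.6 TPM in Phc1-SAM KO NPCs, against 4.63 and 3.99 TPM in WT NPCs. Ednrb, the endothelin receptor of crest-derived melanocyte and enteric precursors, had 3.87 and 4.19 TPM in Phc1-SAM KO NPCs and 20.5 and 26.2 TPM in WT NPCs. The forebrain median was 0.37, and the crest and glia median of -0.12 turned to 0.05 under median-of-ratios scaling and 0.01 under quantile normalization.

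The Hox genes, which encode position along the body axis, split by their place in the clusters. Of 15 genes of groups 1 to 5, 11 were called lower and none higher, with a median of -2.74. Of 12 genes of groups 6 to 9, 6 were lower and 2 higher, with a median of -1.61. Of 8 tested genes of groups 10 to 13, 5 were higher and none lower, with a median of 2.26. The stage change was more negative in Phc1-SAM KO for 13, 10 and 4 genes of these groups, of 15, 12 and 11 tested, and more positive for 1, 1 and 3. Of all genes, 42.8% were more negative and 17.7% more positive, and the counts of groups 10 to 13 were near these shares.

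Hoxb1 and Hoxd1, from the end of the clusters that opens first after retinoic acid, were near WT. Hoxb1 had 60.2 and 54.5 TPM in Phc1-SAM KO NPCs and 43.3 and 39.0 TPM in WT NPCs. Hoxd1 had 3.82 and 4.22 TPM in Phc1-SAM KO NPCs and 3.49 and 3.88 TPM in WT NPCs. These differences were 0.47 and 0.10, and Hoxd1 overlapped between the genotypes.

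The next genes along the clusters were the ones that were lower than in WT NPCs. The summed level of groups 1 to 5 was 25.6 and 23.8 TPM in Phc1-SAM KO ESCs and 438 and 441 TPM in Phc1-SAM KO NPCs. In WT it was 12.3 and 10.3 TPM in ESCs and 1916 and 2025 TPM in NPCs. The sum thus rose in both genotypes, and less in Phc1-SAM KO. Hoxc5 had 5.36 and 8.97 TPM in Phc1-SAM KO NPCs, against 147 and 134 TPM in WT NPCs. Hoxc4 had 12.0 and 13.01 TPM in Phc1-SAM KO NPCs and 159 and 156 TPM in WT NPCs. Hoxd3 had 4.44 and 6.03 TPM in Phc1-SAM KO NPCs and 59.2 and 84.5 TPM in WT NPCs. In each of them the WT libraries were at least several times above the Phc1-SAM KO libraries. After Hoxb1 the HoxB genes were lower than in WT NPCs up to group 9. Hoxb9 had 13.8 and 16.1 TPM in Phc1-SAM KO NPCs and 152 and 215 TPM in WT NPCs. Its neighbour Hoxb8 had 19.8 and 15.2 TPM in Phc1-SAM KO NPCs and 166 and 229 TPM in WT NPCs.

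The HoxA and HoxC clusters turned at group 9. Hoxa9 had 42.3 and 44.8 TPM in Phc1-SAM KO NPCs, against 5.82 and 9.23 TPM in WT NPCs, and Hoxc9 had 14.8 and 14.1 TPM in Phc1-SAM KO NPCs, against 1.86 and 2.41 TPM in WT NPCs. Hoxa10 had 26.0 and 26.4 TPM in Phc1-SAM KO NPCs and 2.38 and 3.03 TPM in WT NPCs. This difference was already there in ESCs, with 7.54 and 8.37 TPM in Phc1-SAM KO and 0.347 and 0.441 TPM in WT, and the stage change of Hoxa10 did not pass the test (0.20 ± 0.19, SE; limma, Benjamini-Hochberg adjusted p = 0.40). Hoxa11 had the same pattern, with 5.19 and 5.76 TPM in Phc1-SAM KO NPCs and 0.155 and 0.411 TPM in WT NPCs (stage change 0.42; limma, Benjamini-Hochberg adjusted p = 0.13). For these 2 genes the table and the genotype cannot be told apart.

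Hoxb13 was different in that its excess appeared at the NPC stage. It had 41.0 and 40.7 TPM in Phc1-SAM KO NPCs, against 7.80 and 5.95 TPM in WT NPCs, and 1.01 and 1.27 TPM in Phc1-SAM KO ESCs, against 1.09 and 1.13 TPM in WT ESCs. Its stage change differed by 2.41 ± 0.21 (SE; limma, Benjamini-Hochberg adjusted p = 9.4e-05). The summed level of groups 10 to 13 was 95.6 and 93.9 TPM in Phc1-SAM KO NPCs and 12.0 and 10.9 TPM in WT NPCs, and 59.4 and 59.0 TPM in Phc1-SAM KO ESCs and 11.7 and 12.2 TPM in WT ESCs. In the plot by paralogue group the points of groups 2 to 5 all lie below the line of no difference, and points come out above it from group 9 on, except in HoxB, where group 9 is still low.

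**Figure D4:**
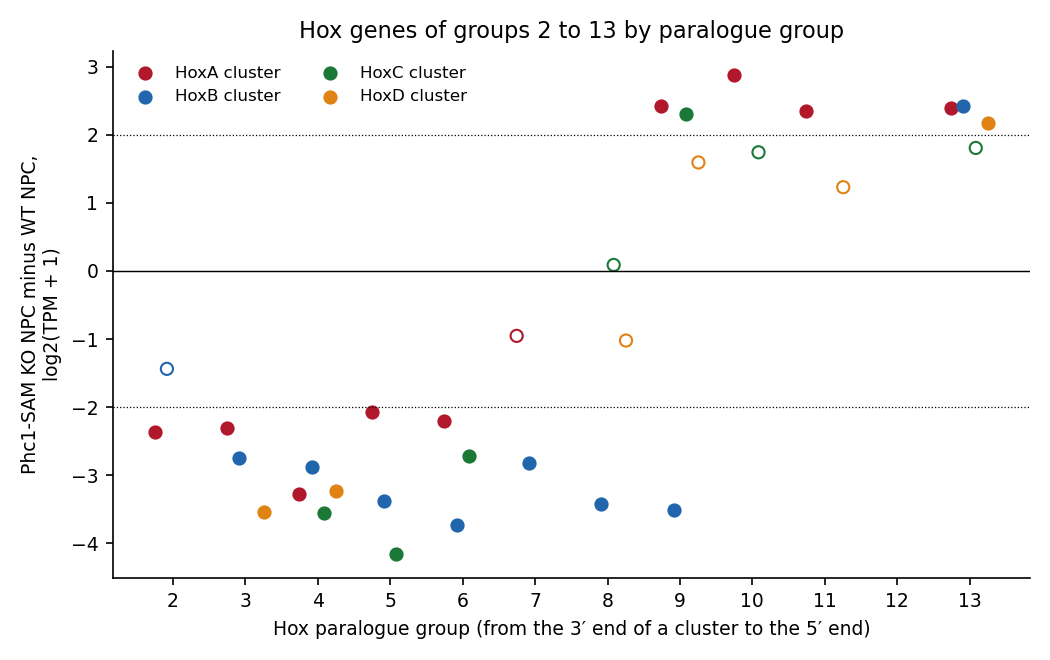
Difference in mean log2(TPM + 1) of Phc1-SAM KO NPCs minus WT NPCs for 32 tested Hox genes of paralogue groups 2 to 13, running from the 3′ to the 5′ end of a cluster, coloured by cluster. Filled points are called by size and the dotted lines mark 4-fold. Hoxc5 is the lowest at -4.15 and Hoxa10 the highest at 2.88.

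The Hox cofactors of the Meis and Pbx families, which bind DNA together with Hox proteins, were lower by smaller amounts. Pbx3 alone of these passed, with 15.2 and 17.2 TPM in Phc1-SAM KO NPCs and 70.2 and 75.7 TPM in WT NPCs, but its -2.10 became -1.92 under median-of-ratios scaling and -1.94 under quantile normalization, both short of the rule, and the 6 other tested Meis and Pbx genes differed by between -1.25 and -0.32. Cdx2, a caudal gene related to Cdx1, differed by -0.02. Of 6 tested genes of the Iroquois and Fto list, Irx3 and Irx5 were called lower. Irx5, a homeobox factor of neural and limb patterning, had 1.74 and 1.78 TPM in Phc1-SAM KO NPCs and 19.6 and 26.1 TPM in WT NPCs. Irx3, its neighbour on chromosome 8, had 7.74 and 9.65 TPM in Phc1-SAM KO NPCs and 38.5 and 55.2 TPM in WT NPCs. Irx1, Irx2, Irx4 and Fto differed by -0.45, -0.42, 1.03 and -0.24.

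Among 44 tested transcription factors known as Polycomb targets in ESCs, none was called higher and 9 were called lower, with a median of -0.28. The stage change was more negative for 29 of 45 and more positive for 3, beside 42.8% and 17.7% of all genes. Under median-of-ratios scaling 24 were more negative and 4 more positive, and under quantile normalization 24 and 5. Barx1, a homeobox gene of branchial arch and stomach mesenchyme, had 1.85 and 1.89 TPM in Phc1-SAM KO NPCs, against 216 and 164 TPM in WT NPCs. Its stage change differed by -6.70 ± 0.27 (SE; limma, Benjamini-Hochberg adjusted p = 4.8e-06). Otp, a homeobox factor of hypothalamic and hindbrain neurons, had 0.0348 and 0.162 TPM in Phc1-SAM KO NPCs and 13.01 and 17.8 TPM in WT NPCs. In ESCs the median difference of the same list was 0.46, beside 0.17 over all genes tested between NPCs and 0.44 in both the PRC1 and the pluripotency lists.

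The genes of retinoic acid signalling separated. Of 17 tested genes, 1 was called higher and 4 lower, with a median of -1.0. The stage change was more negative for 12 and more positive for 3, beside 42.8% and 17.7% of all genes. Under median-of-ratios scaling 10 were more negative and 3 more positive, and under quantile normalization 9 and 3. Stra8, a retinoic acid target that starts meiosis in germ cells, had 695 and 679 TPM in Phc1-SAM KO NPCs, against 6.92 and 14.7 TPM in WT NPCs. In ESCs it stood at 3.99 and 4.07 TPM in Phc1-SAM KO and at 2.76 and 2.91 TPM in WT. Its stage change differed by 5.56 ± 0.38 (SE; limma, Benjamini-Hochberg adjusted p = 3.7e-05), a larger gain in Phc1-SAM KO. Cyp26a1, the retinoic acid hydroxylase that responds directly to its substrate, had 267 and 252 TPM in Phc1-SAM KO NPCs and 85.1 and 109 TPM in WT NPCs, under 4-fold.

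Other components were lower. Crabp1, a cytoplasmic retinoic acid binding protein, had 23.8 and 20.9 TPM in Phc1-SAM KO NPCs, against 203 and 256 TPM in WT NPCs. Nr2f1, the COUP-TFI nuclear receptor, had 27.0 and 29.7 TPM in Phc1-SAM KO NPCs and 212 and 242 TPM in WT NPCs. Cyp26b1, another hydroxylase, had 93.6 and 93.6 TPM in Phc1-SAM KO NPCs and 481 and 484 TPM in WT NPCs. None of these genes overlapped between the genotypes. Aldh1a2, which makes retinoic acid, differed by -2.03, and its call was lost under median-of-ratios scaling (-1.85) and quantile normalization (-1.86). The receptor Rara differed by 0.03, and the sum over the list was 1784 and 1739 TPM in Phc1-SAM KO NPCs and 2432 and 2627 TPM in WT NPCs.

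Germline genes were higher in Phc1-SAM KO NPCs. Of 11 tested, 7 were called higher and none lower, with a median of 2.17. The stage change was more positive for 10, beside 17.7% of all genes. Their sum was 93.9 and 94.3 TPM in Phc1-SAM KO NPCs, against 11.9 and 11.6 TPM in WT NPCs. In ESCs it was 276 and 284 TPM in Phc1-SAM KO and 245 and 267 TPM in WT. The lower sum in Phc1-SAM KO NPCs than in their ESCs came with 1 gene, Rpl10l, which had 226 and 235 TPM in Phc1-SAM KO ESCs. Of the 11 genes, 5 were above their ESC level without overlap in Phc1-SAM KO NPCs and 4 below it, against 1 above and 10 below in WT NPCs. For these counts too the shares of all genes were not counted. Dazl, an RNA-binding protein of germ cells, had 12.4 and 12.98 TPM in Phc1-SAM KO NPCs and 0.168 and 0.254 TPM in WT NPCs. Ddx4, the germ cell helicase Vasa, had 10.7 and 10.8 TPM in Phc1-SAM KO NPCs and 0.228 and 0.181 TPM in WT NPCs. Both were near 0 in WT NPCs and readily measured in Phc1-SAM KO NPCs. Rpl10l, a ribosomal protein gene of the male germ line, had 35.7 and 33.5 TPM in Phc1-SAM KO NPCs and 0.306 and 0.703 TPM in WT NPCs. Rpl10l is a near copy of Rpl10, so its TPM depends on how reads were shared between them.

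The lowest named genes were those of embryonic blood, which the WT NPC libraries held beside the neural genes. Of 15 blood and endothelium genes, 8 were called lower and none higher, with a median of -3.54. A more negative stage change was called for 13, beside 42.8% of all genes. Their sum was 72.1 and 71.0 TPM in Phc1-SAM KO NPCs, against 866 and 792 TPM in WT NPCs. Hbb-y, an embryonic beta-like globin, had 0.369 and 0.181 TPM in Phc1-SAM KO NPCs and 264 and 245 TPM in WT NPCs. Hbb-bh1 was listed at 0 in both Phc1-SAM KO NPC libraries and had 203 and 201 TPM in WT NPCs. Hba-a1 and Hba-a2 were lower as well, but they are near-identical copies and their TPM values are uncertain. Clec1b, a platelet and megakaryocyte receptor, had 0.225 and 0.297 TPM in Phc1-SAM KO NPCs and 60.6 and 53.4 TPM in WT NPCs. These blood genes were at or near 0 in every Phc1-SAM KO NPC library. The endothelial receptor Tie1 had 0.571 and 0.401 TPM in Phc1-SAM KO NPCs and 27.0 and 20.6 TPM in WT NPCs. Kdr, Flt1 and Pecam1, also endothelial, did not pass and differed by -1.89, 0.02 and 0.41.

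Mesoderm genes were split. Of 16 tested genes of the primitive streak and mesoderm list, 2 were higher and 2 lower, and the median of -0.16 turned to 0.03 under both other scalings. Foxf1, a forkhead factor of splanchnic mesoderm, had 3.66 and 4.43 TPM in Phc1-SAM KO NPCs, against 173 and 119.1 TPM in WT NPCs. Osr1, an early marker of intermediate and lateral mesoderm, had 0.852 and 1.26 TPM in Phc1-SAM KO NPCs and 56.8 and 36.7 TPM in WT NPCs. Eomes, a T-box factor of the streak that ESCs also express, was on the other side with 10.1 and 10.1 TPM in Phc1-SAM KO NPCs and 0.136 and 0.199 TPM in WT NPCs. The first 2 were low in Phc1-SAM KO NPCs and Eomes was low in WT NPCs. Tcf15, a helix-loop-helix factor of paraxial mesoderm and of ESCs leaving the naive state, had 18.4 and 15.0 TPM in Phc1-SAM KO NPCs and 2.74 and 2.79 TPM in WT NPCs.

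Cardiac, muscle and fibroblast genes gave calls in 1 direction only. Of 11 cardiac and muscle genes 4 were lower, with a median of 0.00, and of 10 fibroblast genes 3 were lower, with a median of -0.99. Tnnt2, cardiac troponin T, had 0.913 and 0.502 TPM in Phc1-SAM KO NPCs and 15.98 and 12.0 TPM in WT NPCs. Acta2, smooth muscle actin, had 0.270 and 0.0890 TPM in Phc1-SAM KO NPCs and 7.28 and 9.72 TPM in WT NPCs. Acta2 had the opposite order in ESCs, with 9.39 and 8.55 TPM in Phc1-SAM KO and 0.653 and 0.553 TPM in WT. The Acta2 libraries of the genotypes did not overlap at either stage. Pdgfra, a receptor of mesenchymal cells, had 10.0 and 9.64 TPM in Phc1-SAM KO NPCs and 71.4 and 52.96 TPM in WT NPCs. Col3a1, a fibrillar collagen, had 36.9 and 30.1 TPM in Phc1-SAM KO NPCs and 179 and 154 TPM in WT NPCs.

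Of 9 tested trophectoderm and surface ectoderm genes, 2 were higher and none lower, with a median of 1.18. The stage change was more positive for 9 of 10, beside 17.7% of all genes. Tfap2c, an AP-2 factor of trophoblast and germ cells, had 36.3 and 37.5 TPM in Phc1-SAM KO NPCs and 1.27 and 2.29 TPM in WT NPCs. Gcm1, a trophoblast factor, had 4.75 and 3.92 TPM in Phc1-SAM KO NPCs and 0.232 and 0.335 TPM in WT NPCs. Of 20 tested endoderm genes Cubn alone was called. Cubn, the endocytic receptor cubilin of visceral endoderm, had 19.7 and 19.5 TPM in Phc1-SAM KO NPCs, against 1.25 and 1.22 TPM in WT NPCs. The endoderm sum was 657 and 683 TPM in Phc1-SAM KO NPCs and 532 and 459 TPM in WT NPCs.

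Of 7 Cdk inhibitor genes, which brake the cell cycle, 1 was called higher and 1 lower, with a median of -0.22. Cdkn2a, the Ink4a and Arf locus and a classical Polycomb target, had 76.5 and 76.6 TPM in Phc1-SAM KO NPCs, against 13.2 and 10.4 TPM in WT NPCs. Its ESC levels were 37.6 and 38.7 TPM in Phc1-SAM KO and 15.7 and 14.6 TPM in WT. Cdkn1c, an imprinted inhibitor of cells leaving the cycle, had 112 and 111 TPM in Phc1-SAM KO NPCs and 544 and 601 TPM in WT NPCs. Of 15 p53 target genes none was called, with a median of 0.20. Their stage change was more negative for 14, beside 42.8% of all genes, and their median ESC difference was 1.62. Ccng1 had 162 and 163 TPM in Phc1-SAM KO ESCs and 53.1 and 51.1 TPM in WT ESCs.

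Imprinted genes, expressed from 1 parental allele and often linked to growth, were lower more often than higher. Of 14 tested, 5 were called lower and 1, Phlda2, higher, with a median of -1.09. Igf2, a fetal growth factor, had 560 and 546 TPM in Phc1-SAM KO NPCs, against 2836 and 2465 TPM in WT NPCs. Dlk1, a non-canonical Notch ligand, had 13.4 and 14.3 TPM in Phc1-SAM KO NPCs and 169 and 165 TPM in WT NPCs. Grb10, an adaptor that restrains insulin receptor signalling, had 47.2 and 46.0 TPM in Phc1-SAM KO NPCs and 407 and 391 TPM in WT NPCs. In each of them both WT libraries were several times above both Phc1-SAM KO libraries. Peg10, also imprinted, differed by 0.55.

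None of the 13 protein genes of the mitochondrial genome was called, but their sum was 49390 and 60980 TPM in Phc1-SAM KO NPCs, against 84950 and 75600 TPM in WT NPCs. In ESCs it was 34390 and 33970 TPM in Phc1-SAM KO and 95640 and 89840 TPM in WT. The sum was 54400 and 49020 TPM in Phc1 KO NPCs, also of the second table. It was 99240 and 88740 TPM in Pcgf2 KO NPCs, of the first table with WT. For this group of genes the table and the genotype cannot be told apart. Within this group mt-Atp8 had 3483 and 4880 TPM in Phc1-SAM KO NPCs and 19180 and 13080 TPM in WT NPCs, while mt-Co1 had 12480 and 14050 TPM in Phc1-SAM KO NPCs and 11950 and 11480 TPM in WT NPCs. These transcripts take a share of each library's total, and their part in the levels of other genes was not tested beyond the scalings given.

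The second table holds WT columns too, whose values look like a single transcript per gene, and they served as a check on the 8138 tested genes whose WT values lay within 1.5-fold of each other in both tables. There 364 of 379 higher and 227 of 267 lower calls held against these columns, which the choice of genes with like WT values favours. Against them Pou5f1 differed by 7.53, Nanog by 6.53, Cbx7 by 4.98, Barx1 by -6.15, Neurog1 by -4.61 and Irx3 by -2.59. Between the tables these were 7.55, 5.93, 4.52, -6.04, -4.58 and -2.29. Of 54 named genes called between the tables that could be checked, 53 were still called, and the median shift was 0.09 in size. Col3a1 lost its call (-1.90, against -2.28 between the tables), and Erbb3 shifted most, to 3.61 against 2.56. For Zfp967, a zinc-finger gene among the lower ones, the table and the genotype cannot be told apart. The Phc1-SAM KO libraries of both stages had at most 0.436 TPM, against 34.3 and 38.3 TPM in WT NPCs and 23.4 and 20.2 TPM in WT ESCs. Zfp967 had at most 0.00417 TPM in Phc1 KO NPCs, also of the second table. In Pcgf2 KO NPCs, of the first table, Zfp967 had 34.6 and 30.6 TPM. Its stage change differed by only -0.97 (limma, Benjamini-Hochberg adjusted p = 0.015), with adjusted p = 0.056 without WT ESC replicate 2 and 0.057 without WT NPC replicate 2, and 0.30 under median-of-ratios scaling.

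Within the second table, Phc1-SAM KO NPCs could be set against Phc1 KO NPCs directly, which asks whether the genotype named for the SAM domain and the one named for the gene differ. With limma on log2(TPM + 1), fitted over the 8 ESC and NPC libraries of both knock-outs, and Benjamini-Hochberg adjustment at 0.05, 261 of 14422 genes were higher in Phc1-SAM KO NPCs (1.81%) and 469 lower (3.25%). The changes were small: 40 of the higher and 34 of the lower genes passed 2-fold, and 3 and 4 passed 4-fold. Leaving out 1 library cut the calls to 42 higher and 57 lower without Phc1 KO replicate 1, 38 and 40 without Phc1 KO replicate 2, 76 and 116 without Phc1-SAM KO replicate 1, and 85 and 101 without Phc1-SAM KO replicate 2. Of the genes 4-fold higher against WT, 74 of 487 tested (15.2%) were called between the knock-outs, and of those 4-fold lower 25 of 277 tested (9.03%), beside 5.06% of all genes. The other lower genes did not reach 1 TPM in at least 2 NPC libraries of the knock-outs and were not tested.

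Of the genes that set Phc1-SAM KO apart from WT, 474 of 487 higher and 268 of 277 tested lower ones were within 2-fold between the knock-outs. Some were not, such as Grb10 and Cubn. The share of all genes within 2-fold was not counted, and of all 14422 only 40 higher and 34 lower were called at 2-fold or more. Both knock-outs stand in the second table and WT in the first, so a factor of the table would be shared by the knock-outs. Its part was not tested. Pou5f1 had 404 and 394 TPM in Phc1-SAM KO NPCs and 429 and 437 TPM in Phc1 KO NPCs. Hoxc4 had 12.0 and 13.01 TPM in Phc1-SAM KO NPCs and 12.9 and 13.4 TPM in Phc1 KO NPCs. Stra8 had 695 and 679 TPM in Phc1-SAM KO NPCs and 597 and 618 TPM in Phc1 KO NPCs. Over the pluripotency list 10 of 20 genes were lower in Phc1-SAM KO NPCs and none higher, with a median of -0.24. Leaving out 1 library kept 6 calls without Phc1 KO replicate 1, 4 without Phc1 KO replicate 2, 8 without Phc1-SAM KO replicate 1 and 6 without Phc1-SAM KO replicate 2. The list summed to 3544 and 3462 TPM in Phc1-SAM KO NPCs and 4000 and 3955 TPM in Phc1 KO NPCs.

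Endoderm genes were the list with the most calls between the 2 knock-outs. Of 20 tested genes 16 were higher in Phc1-SAM KO NPCs and none lower, with a median of 0.97 against -0.05 for all genes. Leaving out 1 library kept 6 to 8 calls, with 6 without Phc1 KO replicate 2 and 8 without each of the others, while 19 of 20 genes had the same sign each time. Apoa1, an apolipoprotein of yolk sac and liver, had 9.35 and 11.4 TPM in Phc1-SAM KO NPCs, against 0.677 and 0.467 TPM in Phc1 KO NPCs. Its difference of 2.85 ± 0.18 (SE) passed with adjusted p = 0.001 (limma, Benjamini-Hochberg). Cubn had 19.7 and 19.5 TPM in Phc1-SAM KO NPCs and 5.11 and 4.80 TPM in Phc1 KO NPCs. Ttr, the thyroxine carrier transthyretin, had 10.9 and 11.1 TPM in Phc1-SAM KO NPCs and 2.98 and 3.35 TPM in Phc1 KO NPCs, with 11.3 and 8.99 TPM in WT NPCs. The basement membrane chains Lama1, Lamb1, Col4a1 and Col4a2 were all higher too; Col4a1 had 205 and 226 TPM in Phc1-SAM KO NPCs and 106 and 113 TPM in Phc1 KO NPCs. The endoderm regulators Gata6 and Foxa1 did not pass the test.

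**Figure D5:**
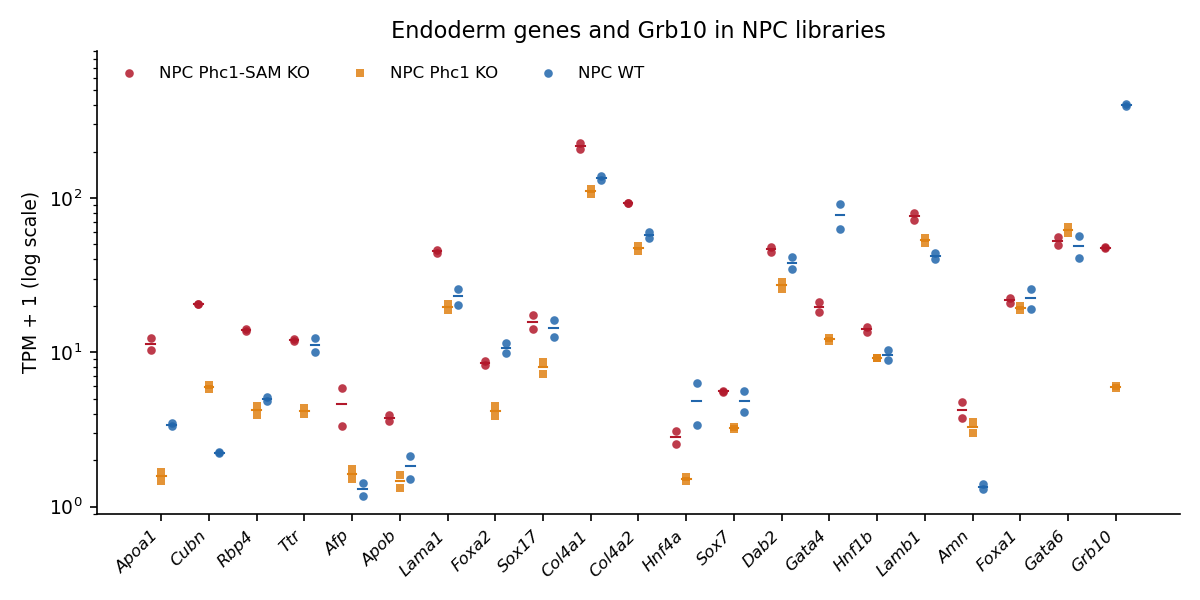
TPM + 1 on a log scale for 20 tested endoderm genes and Grb10 in the NPC libraries of Phc1-SAM KO (red circles), Phc1 KO (orange squares) and WT (blue circles, from the other table). Each point is 1 library and the short lines are means of 2. Red lies above orange for 19 of the 20 endoderm genes, and for Grb10 the 3 genotypes are well separated.

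Grb10 had the firmest difference of the imprinted genes between the knock-outs. It had 47.2 and 46.0 TPM in Phc1-SAM KO NPCs and 4.85 and 5.01 TPM in Phc1 KO NPCs, against 407 and 391 TPM in WT NPCs. The difference between the knock-outs was 3.01 ± 0.09 (SE; limma, Benjamini-Hochberg adjusted p = 9.3e-05), and it held without any 1 of the 4 libraries (adjusted p between 0.0028 and 0.0056). Cdkn2a was also higher, with 76.5 and 76.6 TPM in Phc1-SAM KO NPCs and 43.4 and 39.4 TPM in Phc1 KO NPCs. Nnat, an imprinted neuronal proteolipid, went the other way with 74.2 and 73.8 TPM in Phc1-SAM KO NPCs and 137 and 137 TPM in Phc1 KO NPCs.

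The libraries labelled Pcgf2 KO NPC stand in the first table with WT and share the WT NPC libraries, so their values are given only side by side. Pcgf2 itself had 163 and 148 TPM in them, against 126 and 120 TPM in WT NPCs, so its RNA was not lower than in WT. A gene-level TPM cannot show every edit, so the label was not checked by it. Pou5f1 had 404 and 394 TPM in Phc1-SAM KO NPCs and 328 and 350 TPM in Pcgf2 KO NPCs, against 0.823 and 1.51 TPM in WT NPCs. Irx5 had 1.74 and 1.78 TPM in Phc1-SAM KO NPCs and 1.65 and 1.54 TPM in Pcgf2 KO NPCs, against 19.6 and 26.1 TPM in WT NPCs. Irx3 had 7.74 and 9.65 TPM in Phc1-SAM KO NPCs but 28.6 and 33.0 TPM in Pcgf2 KO NPCs, against 38.5 and 55.2 TPM in WT NPCs. Irx5 was thus low in both knock-outs, and Irx3 in Phc1-SAM KO NPCs. Hoxa10 had 26.0 and 26.4 TPM in Phc1-SAM KO NPCs and 4.60 and 3.20 TPM in Pcgf2 KO NPCs, against 2.38 and 3.03 TPM in WT NPCs. Dlk1 had 13.4 and 14.3 TPM in Phc1-SAM KO NPCs and 3.27 and 3.62 TPM in Pcgf2 KO NPCs, against 169 and 165 TPM in WT NPCs. For Irx3 and Hoxa10 the Pcgf2 KO libraries were nearer to WT, and for Dlk1 they were further from it.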

How the data were processed

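RNA was measured by RNA-seq of TRIzol-extracted RNA in TruSeq libraries, per the labels' protocols. Per the submitters' processing notes, kallisto and mm10 were among the tools and builds used, with no role given. The authors deposited TPM values per gene in 2 tables, of 35245 and 32231 genes, made separately; reads behind a value are not given. Columns were rescaled to the same total over the 31268 genes in both tables and analysed as log2(TPM + 1). Tests were two-sided, with limma 3.58.1 in R 4.3.3 (trend, 1 mean per group, Benjamini-Hochberg over all genes tested). Genes tested for stage changes reached 1 TPM in 2 or more of the 8 libraries. For the contrast of the knock-outs they did so in 2 or more of its 4 NPC libraries. The methods were tested on simulated data. Under the naming rule, Phc1, Phc2, Phc3, Pcgf2 and Bmi1 are named. So are the 12 highest and 12 lowest called genes (group mean 5 TPM or more, same stage call, predicted genes left out). The rule also takes up to 4 most changed called members of a list (the 2 most abundant where none was called). Other genes of a list were chosen after their values were seen. The comparison and the gene lists were chosen with earlier results of these data known. Library numbers did not pair the samples. H19 and Meg3 and the histone list were not in both tables under the searched names and were not analysed here, and a few other genes are not reported here. Promoter sequences are from RefSeq, GRCm38.p6.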

Additional observations from a re-analysis of the deposited data

Results flagged for a closer look

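The effect of differentiation differed between genotypes by test: the stage change from ESC to NPC was more positive in Phc1-SAM KO than in WT for 2775 genes and more negative for 6735 (limma, Benjamini-Hochberg). Between the NPCs of the 2 Phc1 genotypes, 261 genes were higher and 469 lower in Phc1-SAM KO. For 11 named genes the libraries moved in opposite directions between stages, by at least 2-fold on the log2(TPM + 1) scale within each genotype. Other named genes, such as Mt2 and Aqp3, also moved in opposite directions, but by less than 2-fold within 1 genotype. For the 11 genes the stage changes of Phc1-SAM KO minus WT were as follows. They were 8.17 for Fam25c, 6.36 for Calcoco2, 9.73 for Lefty1, 7.45 for Crxos, 7.62 for Cdx1, 8.10 for Lefty2 and 2.82 for Tfap2c, which are higher in Phc1-SAM KO NPCs than in Phc1-SAM KO ESCs and lower in WT NPCs than in WT ESCs. They were -4.43 for Gap43, -5.64 for Acta2, -5.01 for Col1a1 and -4.08 for Crabp1, which are lower in Phc1-SAM KO NPCs than in Phc1-SAM KO ESCs and higher in WT NPCs than in WT ESCs. Groups of 2 libraries are too small for a test of single outlying libraries.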

How the results depend on the processing

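The number of genes called between Phc1-SAM KO NPCs and WT NPCs, 487 higher and 473 lower, depended on the cutoff by construction: 943 and 887 with pseudocount 0.1, 175 and 159 with pseudocount 5, 1521 and 2087 at 2-fold, 201 and 152 at 8-fold, and 423 and 257 against the WT columns of the second table. Leaving out 1 library gave 500 to 520 higher and 466 to 502 lower. Stage changes gave 4458 higher and 4118 lower under median-of-ratios scaling and 4266 and 4332 under quantile normalization, and 2429 to 2580 and 5890 to 6610 without 1 library. Against Phc1 KO, leaving out 1 library gave 38 to 85 higher and 40 to 116 lower, and median-of-ratios scaling gave 273 lower. Library numbers did not pair the samples (correlations of deviations between -0.05 and 0.05); with them as a replicate block the stage changes gave 2759 and 6702 and the contrast of the knock-outs 153 and 237. Values of 91 named genes under alternatives, 3723 in all, were set beside the main setting. Against WT NPCs a value counted as the same if it shifted by less than the spread between libraries, whatever its call, and otherwise as moved. In the limma contrasts it counted as the same if it stayed called in 1 direction or stayed uncalled. So counted, 3405 were the same, 236 moved, 72 lost a limma call, 6 gained one and 4 reversed. The stage change reversed for Phc1 to 0.30 (limma, Benjamini-Hochberg adjusted p = 0.028) and for Bax to 0.067 under median-of-ratios scaling. It reversed for mt-Co1 to -0.46 under quantile normalization and for Hoxa10 to -0.80 with pseudocount 0.1. The cause was not tested. The calls on the stage changes of Phc2 and Bmi1 were lost under median-of-ratios scaling and quantile normalization, and that of Bmi1 also with no filter on low values and without either NPC library of either genotype, WT ESC replicate 2 or Phc1-SAM KO ESC replicate 1. Under both of these scalings the calls by size on Hoxa5, Pbx3, Aldh1a2, Six2 and Plagl1 were lost, and those on the other list members held. The unknown depth limits statements on genes near 0 TPM.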
